A study of Arabidopsis thaliana with 9 samples.

Results

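HEMA2, HEME2, CHLM and PORB encode enzymes at 4 steps of the tetrapyrrole pathway, by which plastids make chlorophyll and haem. They were taken as the probe sets that name exactly these genes, 1 probe set for each, which gives 4 of the 13356 genes named here. The data are 9 Affymetrix arrays of whole Arabidopsis thaliana seedlings that were germinated on plates and kept in darkness until harvest at 10 days. Each of 3 lines has 3 arrays: wild type Col-0, a line called L17 and labelled as a phyA' line, and a line called sps1. Per the labels all 3 lines share the Col-0 background and none was treated, while the alleles carried by L17 and sps1, and whether either line is 1 clone, are not stated. Separate cultures for the arrays of a line are not stated either, and p-values here measure the spread between these arrays, which may be technical.

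The pathway starts in the plastid with glutamate bound to its transfer RNA, which glutamyl-tRNA reductase commits to the synthesis of 5-aminolevulinic acid. Uroporphyrinogen and protoporphyrin follow, and there the route divides into an iron branch towards haem and the phytochrome chromophore and a magnesium branch towards chlorophyll. In a flowering plant in the dark the magnesium branch halts at protochlorophyllide, because protochlorophyllide oxidoreductase needs light, and the seedling stays without chlorophyll. Transcript levels of enzymes on this route were compared between the lines, step by step. In whole seedlings fewer cells of a type and less RNA per cell cannot be told apart.

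The values are signals in arbitrary units on a linear scale, already scaled by the authors. They were tested as log2(signal + 16) in 1 limma fit of all 9 arrays, with Benjamini-Hochberg adjustment over 22746 probe sets. A gene was called changed at an adjusted p under 0.05. In L17 against wild type 5.32% of all probe sets were called higher and 6.12% lower, and in sps1 against wild type 6.68% higher and 7.94% lower. In sps1 against L17 the shares were 3.14% higher and 3.72% lower. The 3 arrays of 1 line lay apart from the 3 of the other for 31.2% of probe sets in L17 against wild type, for 33.4% in sps1 against wild type and for 30.7% in sps1 against L17, so separate arrays alone are common here.

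The third wild type array stood apart. Across probe sets, its highest correlation with another wild type array was 0.954 on the log2 scale, whereas the other 2 reached 0.986 with each other. The summed signal of 3 heat shock genes named here, of 9 on the list used, ran from 390 to 17742 over the wild type arrays, the high value being that of the third. It stayed between 315 and 416 in L17 and between 423 and 744 in sps1. For HEMA2 and PORB, and for the shifts of HEMA2 against the other members, values without it are given below.

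Each line differed from wild type in a gene of an early step and in a gene of a late step of the route. Whether these steps as a whole changed cannot be read, since HEMA1, PORA and PORC have no probe set named here and HEMA3 was too dim. HEMA2, at the first committed step, was lower in both lines, and PORB, at the light-requiring step, was higher in both. HEME2, midway, passed the test as higher in sps1 only, a call lost under 6 of 19 alternatives. L17 lay on the same side of wild type, and sps1 and L17 did not differ by the test. CHLM, on the magnesium branch, was highest in sps1 and lowest in L17, and only the difference between these lines passed the test.

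**Figure D1:**
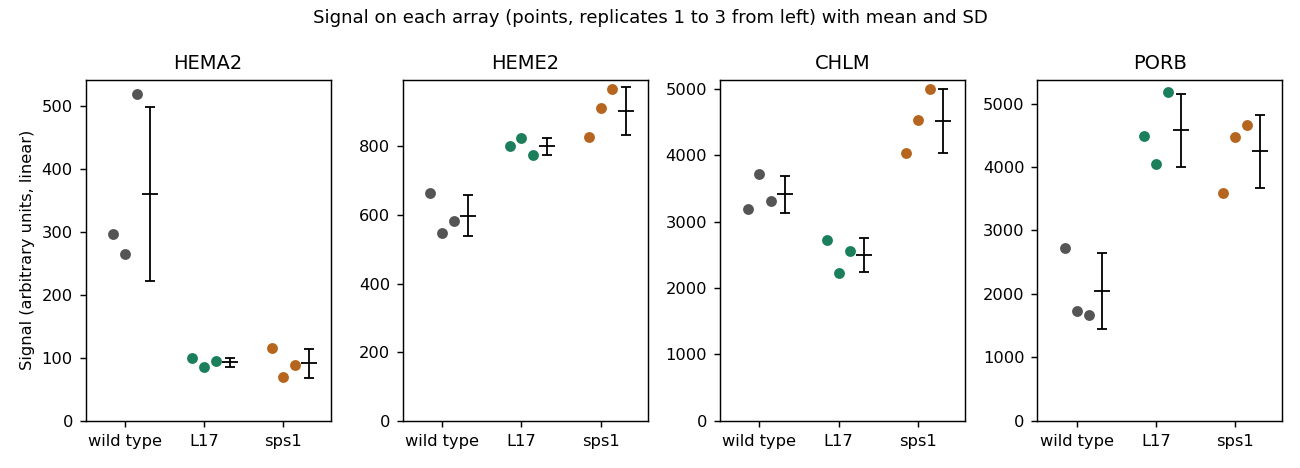
Signal (arbitrary units, linear axis from 0) of HEMA2, HEME2, CHLM and PORB on each of the 9 arrays, by line. Points are single arrays, and the black bar and whiskers give mean and SD over 3 arrays. HEMA2 lay at or under 115 on every L17 and sps1 array and at or above 266 on every wild type array, while CHLM stepped up from L17 through wild type to sps1.

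HEMA2 (AT1G09940) encodes a glutamyl-tRNA reductase, the enzyme that commits glutamate to tetrapyrroles, in a form also expressed in tissues that are not green. Its signal was 297, 266 and 519 on the wild type arrays, 99.7, 84.8 and 94.4 on the L17 arrays, and 115, 70.5 and 88.7 on the sps1 arrays. The lowest wild type array was above the highest array of either other line, and the arrays of L17 and sps1 overlapped.

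HEMA2 fell in L17 from 361 ± 138 to 93.0 ± 7.51 (SD, n = 3), a log2 change of -1.73 ± 0.25 (SE, limma adjusted p = 0.00357; 95% interval from -2.31 to -1.15). Only 1.42% of all probe sets fell further. In sps1 it fell to 91.5 ± 22.5, a log2 change of -1.77 ± 0.25 (SE, limma adjusted p = 0.00241), with 1.99% of probe sets falling further. These comparisons use the same wild type arrays. Without the third wild type array, which had the highest HEMA2 signal, the log2 changes were -1.45 in L17 (limma adjusted p = 0.00314) and -1.49 in sps1 (limma adjusted p = 0.00206). Between sps1 and L17 the log2 difference was -0.04, with a 95% interval from -0.62 to 0.54 (limma adjusted p = 0.961).

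HEME2 (AT2G40490) encodes a uroporphyrinogen decarboxylase, which makes coproporphyrinogen on the part of the route that haem and chlorophyll share. Its signal was 663, 547 and 583 in wild type, 799, 824 and 774 in L17, and 826, 912 and 966 in sps1. The 3 lines did not overlap, and the gap between L17 and sps1, from 824 to 826, was narrow.

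HEME2 rose in sps1 from 598 ± 59.2 to 901 ± 70.3 (SD, n = 3), a log2 change of 0.58 ± 0.13 (SE, limma adjusted p = 0.0175). This call was lost without the second wild type array (adjusted p = 0.0599), without sps1 replicate 2 (0.0597) or 3 (0.0708), with only these lines in the fit (0.0539) and with the replicate number as a block (0.0540). In L17 the mean was 799 ± 25.2 and the log2 change 0.41 ± 0.13 (SE, limma adjusted p = 0.0745), with a 95% interval from 0.12 to 0.71. Between sps1 and L17 the log2 difference was 0.17, with an interval from -0.12 to 0.46 (limma adjusted p = 0.542). The means fell from sps1 through L17 to wild type, but only sps1 against wild type passed the test. A place of L17 between the other lines is therefore not shown.

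CHLM (AT4G25080) encodes the methyltransferase that turns magnesium protoporphyrin into its monomethyl ester, a step used for chlorophyll only. Its signal was 3197, 3718 and 3315 in wild type, 2727, 2225 and 2554 in L17, and 4028, 4533 and 4990 in sps1. Every L17 array was below every wild type array, and every sps1 array was above them all. Of all probe sets 0.721% had the arrays of the 3 lines separate in this same order.

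CHLM differed between sps1 and L17, at 4517 ± 481 against 2502 ± 255 (SD, n = 3), which is 0.85 ± 0.14 on the log2 scale (SE, limma adjusted p = 0.00979) with a 95% interval from 0.52 to 1.17. This difference uses no wild type array in its means, and 2.78% of probe sets had a larger positive one. Against the wild type mean of 3410 ± 273, the log2 change was -0.45 in L17 (interval -0.77 to -0.12, limma adjusted p = 0.0823) and 0.40 in sps1 (interval 0.08 to 0.73, limma adjusted p = 0.0986). Neither passed the threshold as reported. With a pseudocount of 64, with dim probe sets filtered out, or with trended and robust moderation, both passed (adjusted p between 0.0244 and 0.0467).

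PORB (AT4G27440) encodes a protochlorophyllide oxidoreductase, the enzyme that waits for light in an etiolated seedling. Its signal was 2730, 1725 and 1673 in wild type, 4486, 4054 and 5188 in L17, and 3596, 4479 and 4669 in sps1. The highest wild type array, the first, was below every array of the other lines, whose own ranges overlapped.

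PORB rose in L17 from 2043 ± 596 to 4576 ± 572 (SD, n = 3), a log2 change of 1.19 ± 0.21 (SE, limma adjusted p = 0.00932), and 1.44% of probe sets rose further. In sps1 it rose to 4248 ± 572, a log2 change of 1.08 ± 0.21 (SE, limma adjusted p = 0.0111), with 2.16% rising further. Without the third wild type array the log2 changes were 1.06 (limma adjusted p = 0.0233) and 0.95 (limma adjusted p = 0.0274). Without the first they were 1.41 (limma adjusted p = 0.00426) and 1.31 (limma adjusted p = 0.00430). Between sps1 and L17 the log2 difference was -0.11, with an interval from -0.60 to 0.38 (limma adjusted p = 0.846).

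Counted over the members, 1 of 4 rose and 1 fell in L17, 2 rose and 1 fell in sps1, and 1 was higher in sps1 than in L17. The medians of the 4 log2 changes were -0.02, 0.49 and 0.06 in these comparisons, beside 0.01, -0.01 and -0.02 over all probe sets. Of all probe sets 5.32% rose and 6.12% fell in L17, 6.68% rose and 7.94% fell in sps1, and 3.14% were higher and 3.72% lower in sps1 than in L17. In both lines the arrays of all 4 members lay apart from those of wild type, as did 31.2% of all probe sets in L17 and 33.4% in sps1. Nothing about the members as a set is read from counts over 4 genes.

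The change of HEMA2 relative to each other member was also set out array by array, as log2(HEMA2 + 16) minus the same for the other member. Its shift between lines equals the difference of the log2 changes already given, and what it adds is the spread of the single arrays. Only the change of this quantity between lines can be read, since signals of different probe sets share no scale. Against PORB its mean was -2.47 ± 0.75 for the wild type arrays, -5.39 ± 0.15 for L17 and -5.32 ± 0.48 for sps1 (SD, n = 3), which gives a shift of HEMA2 relative to PORB of -2.92 in L17 and -2.85 in sps1. Against HEME2 the shifts were -2.15 in L17 and -2.35 in sps1. All arrays of each line lay apart from wild type in these differences.

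Against CHLM the shift was -1.29 in L17 and -2.17 in sps1, and the L17 and sps1 arrays lay apart from each other too, by -0.89. An exact permutation test (two-sided) returned p = 0.1 for each of these 7 comparisons with separate arrays, the smallest p that 3 against 3 arrays allow, and 0.129 after adjustment over 9 tests. HEMA2 against HEME2 and against PORB gave shifts of -0.21 (exact permutation p = 0.4) and 0.07 (exact permutation p = 0.9) between sps1 and L17. Without the third wild type array the shifts in L17 and sps1 were -2.51 and -2.44 against PORB, -1.85 and -2.05 against HEME2, and -0.98 and -1.87 against CHLM.

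**Figure D2:**
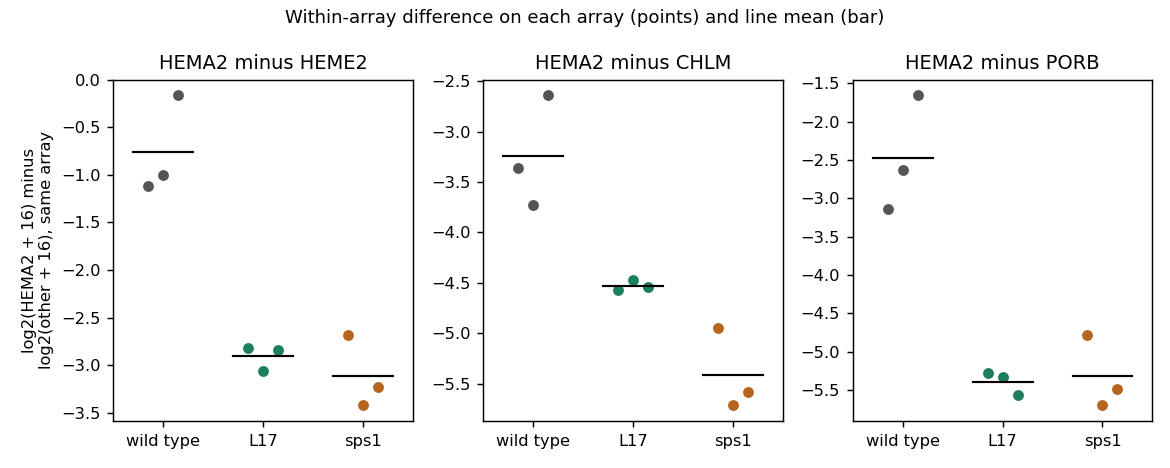
Within-array difference log2(HEMA2 + 16) minus log2(other + 16) for HEME2, CHLM and PORB (vertical axes differ and do not start at 0). Points are arrays and bars line means. All L17 and sps1 arrays lay below the wild type arrays in each panel, the third wild type array was the highest, and for CHLM the sps1 arrays also lay below those of L17.

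The rest of the pathway was read from a list of 45 genes in order of steps, of which 15 have a probe set named for them here, the members included. The other 30, among them HEMA1, CHLH, PORA and PORC, are not analysed here, and 8730 of the probe sets are unnamed. Of the 11 named genes beside the members 1 rose and 0 fell in L17, 2 rose and 0 fell in sps1, and 1 was higher and 0 lower in sps1 than in L17. By limma's unadjusted p under 0.05, 1 rose and 1 fell in L17, 5 rose and 0 fell in sps1, and 4 were higher and 0 lower in sps1 than in L17. At that unadjusted p 13.4% of all probe sets were higher and 12.3% lower in L17, 13.5% and 14.9% in sps1, and 9.18% and 11.2% in sps1 against L17. Nothing particular to the list is read from counts this small. The median log2 changes of the 11 genes were 0.06, 0.29 and 0.20, in the same order of comparisons.

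**Figure D3:**
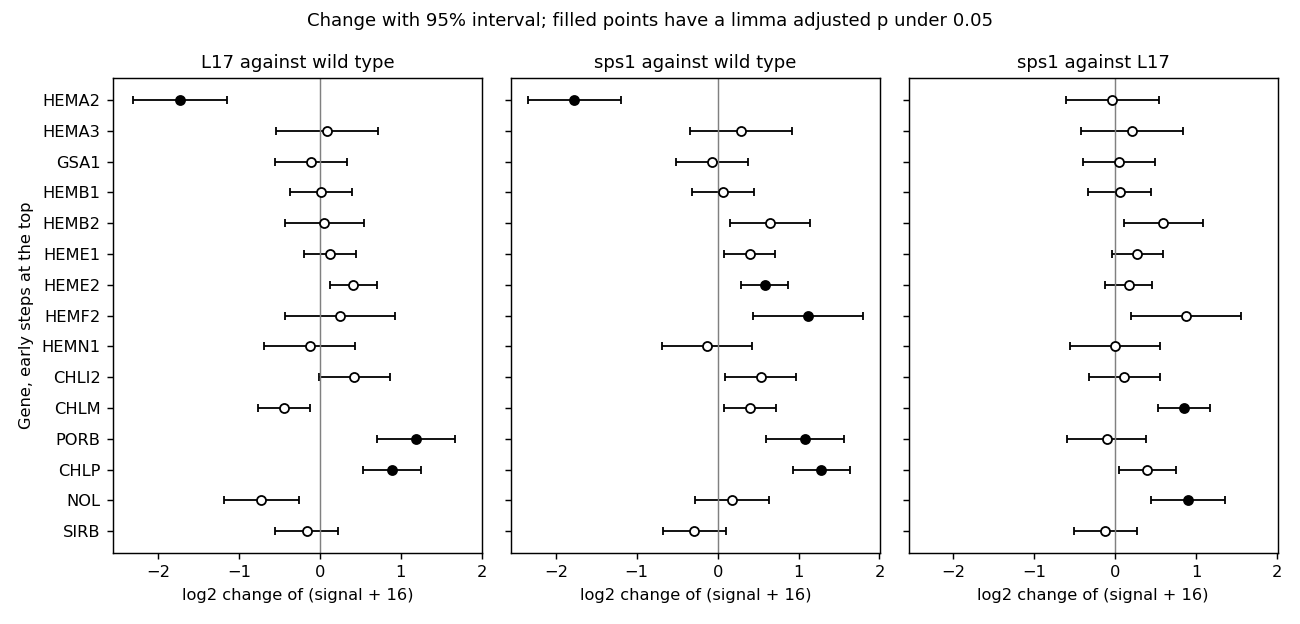
Log2 change of (signal + 16) with its 95% interval for the 15 pathway genes named here, in the 3 comparisons. Early steps are at the top, except that SIRB, of the sirohaem side branch, is placed last. Filled points passed the test (limma adjusted p under 0.05). HEMA2 is the one filled point to the left of 0, in both comparisons with wild type, and PORB and CHLP are filled to the right in both.

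At the first step a second glutamyl-tRNA reductase gene, HEMA3, had signals between 1.23 and 18.9 on all 9 arrays, in a range where the pseudocount of 16 hides change. Among the genes of the next steps named here, GSA1 and HEMB1 kept closer to wild type than HEMA2 did. GSA1, for the aminotransferase that completes 5-aminolevulinic acid, averaged 745 ± 211 (wild type), 674 ± 57.5 (L17) and 696 ± 62.0 (sps1) (SD, n = 3). Its log2 changes were -0.11 in L17 (interval -0.55 to 0.34) and -0.07 in sps1 (interval -0.51 to 0.38). HEMB1, for 5-aminolevulinic acid dehydratase, averaged 1435, 1436 and 1498, with log2 changes of 0.01 in L17 (interval -0.38 to 0.40) and 0.06 in sps1 (interval -0.32 to 0.45). None of these intervals reaches the HEMA2 changes. HEMB2, annotated as a second gene for that step, was dim, at 32.4 in wild type and 59.6 in sps1 (log2 change 0.65, limma adjusted p = 0.0808). HEMB2 passed in sps1 with quantile normalization, median centring or array weights.

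Midway, HEME1 is the second uroporphyrinogen decarboxylase gene beside HEME2. It averaged 276 ± 13.5 (wild type), 302 ± 15.4 (L17) and 370 ± 54.3 (sps1) (SD, n = 3), and its log2 change in sps1 was 0.39 (limma adjusted p = 0.0968), which passed after median centring or with dim probe sets filtered out. HEMF2, named for coproporphyrinogen oxidase, read 49.6, 16.4 and 53.1 in wild type, 31.8, 55.9 and 55.4 in L17, and 112, 86.3 and 99.7 in sps1. All sps1 arrays were above all others. HEMF2 rose in sps1 with a log2 change of 1.12 ± 0.30 (SE, limma adjusted p = 0.0380). The call was lost without the second wild type array (0.0611), without L17 replicate 2 or 3 (0.0566 or 0.0539), without any sps1 replicate (0.0759 to 0.111), with a pseudocount of 1 (0.0797), with only these lines in the fit (0.0724) and with the replicate block (0.0597). AT5G63290, listed with this step as HEMN1, stayed between 22.9 and 59.2 on all arrays.

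On the magnesium branch the chelatase subunit gene CHLI2 averaged 115 ± 20.9 (wild type), 160 ± 29.8 (L17) and 174 ± 31.5 (sps1) (SD, n = 3). Its log2 changes of 0.42 and 0.53 did not pass (limma adjusted p = 0.211 and 0.104), the second passing with quantile normalization, median centring or the dim filter. CHLP (AT1G74470), for the geranylgeranyl reductase that makes the phytyl tail of chlorophyll, read 3859, 3622 and 4437 in wild type, 6933, 6467 and 8826 in L17, and 9343, 10328 and 9321 in sps1. The lines did not overlap. CHLP rose in L17 by a log2 change of 0.89 ± 0.16 (SE, limma adjusted p = 0.00820) and in sps1 by 1.28 ± 0.16 (SE, limma adjusted p = 0.00104). Both calls were kept under all 19 alternatives. The log2 difference between sps1 and L17 was 0.39 (interval 0.04 to 0.75, limma adjusted p = 0.193).

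NOL, for a chlorophyll b reductase that works on finished pigment, read 457, 324 and 328 in wild type, 237, 222 and 188 in L17, and 346, 528 and 387 in sps1. The L17 arrays were below all others, and the wild type and sps1 arrays overlapped. NOL was higher in sps1 than in L17 by 0.90 ± 0.20 on the log2 scale (SE, limma adjusted p = 0.0322), a call lost without any 1 L17 replicate (0.0681 to 0.107), without sps1 replicate 2 or 3 (0.0999 or 0.0801), with a pseudocount of 1 (0.0505) and with the replicate block (0.0685). Against wild type the log2 change was -0.72 in L17 (limma adjusted p = 0.0524) and 0.17 in sps1 (interval -0.28 to 0.63, limma adjusted p = 0.632). SIRB, on the sirohaem side branch, averaged 764, 676 and 620 in wild type, L17 and sps1, and neither change passed.

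A list of 7 further genes of chlorophyll breakdown had no probe set named here and is not analysed, and of 16 regulators 2 were named. EIN3, a transcription factor of the ethylene response, averaged 4533 (wild type), 3619 (L17) and 4415 (sps1), and no comparison passed. HYH, a transcription factor of light signalling, averaged 40.6 ± 23.5, 18.6 ± 14.4 and 103 ± 2.54 (SD, n = 3) in the same order. Its difference between sps1 and L17 passed, at 1.89 on the log2 scale (limma adjusted p = 0.0278). The L17 arrays read 27.6, 26.2 and 2.07, near the pseudocount of 16, so the size of this difference depends on it.

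The genes whose log2 signals followed a member most closely over the 9 arrays were taken as the 5 with the highest Pearson r among 6875 named probe sets with a mean signal of at least 100. The arrays fall into 3 lines, so r mostly reflects the order of the lines. Nearest to HEMA2 were AT1G05340 (r = 0.991), AT5G39580, pEARLI4, AT3G18250 and AT1G71140 (r down to 0.981). AT5G39580 averaged 4015 (wild type), 210 (L17) and 273 (sps1). Nearest to HEME2 were AT3G62160 (r = 0.986), AT4G17560, AT5G63010, AT1G77540 and AT3G08740 (r down to 0.974), the last averaging 529, 898 and 1247.

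Nearest to CHLM were AT3G23700 (r = 0.975), SRX, AT5G40660, AT1G73655 and AT4G33670 in order of r. SRX, for sulfiredoxin, averaged 837 (wild type), 525 (L17) and 1159 (sps1), and passed the test in all 3 comparisons (limma adjusted p = 0.00895, 0.0313 and 0.00114). Nearest to PORB was rps18 (r = 0.983), a plastid-encoded gene for a ribosomal protein, at 209, 778 and 755. AT5G02240, AT1G16350, AT5G58660 and AT1G33290 followed (r down to 0.969). No pathway gene was among these genes, but few could have been. The 30 pathway genes without a named probe set, and the dim HEMA3, HEMB2, HEMF2 and HEMN1, were not candidates, so nothing is read from their absence.

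The nearest genes named here on either side of each member on its chromosome were also read. PORB lies between AT4G27435, with log2 changes of -0.47 in L17 and -0.32 in sps1, and AT4G27450, with -0.02 and 0.13. None of these 4 values passed the test (smallest limma adjusted p = 0.0641). The nearest genes named here to HEMA2, AT1G09920 and AT1G09980, gave log2 changes between -0.71 and -0.13 in the 2 lines, none of them past the test. None of the neighbours of HEME2 (AT2G40480 and AT2G40530) or CHLM (AT4G25070 and AT4G25090) passed in any comparison. Those of CHLM were dim, at 75.7 and 36.1 in wild type, so a missing call says little. AT4G25090 had log2 changes of -0.73 in L17 and 0.42 in sps1, and a difference of 1.15 between sps1 and L17. For AT4G25070 these values were -0.61, -1.08 and -0.47.

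Some of the other measures read moved with the lines, and the part of any of them in the results above was not tested. For seed reserves 1 of 13 listed genes was named here, OLEO3, an oil body protein, which ran from 815 to 1000.4 in wild type, from 2073 to 2425 in L17 and from 1349 to 1488 in sps1. For light-grown leaves 1 of 13 was named, LHCB4.2, an antenna protein, which ran from 4470 to 4648, from 1849 to 2297 and from 2363 to 2762. For roots 3 of 13 were named, with a summed signal, nearly all of it from PYK10, of 13346 to 14874, 14770 to 17307 and 14268 to 18983, which overlapped. The dim root genes, hidden in this sum, differed in direction. EXP7 averaged 33.9 (wild type), 8.70 (L17) and 3.25 (sps1), with every sps1 array below every wild type array. EXP18 averaged 41.1, 59.7 and 22.8 in the same order. No root gene passed the test in any comparison. The other markers of these lists are not named here, so the tissue label could be checked against these few genes only. The ratio of 3' to 5' signal of 1 pair of ubiquitin control probe sets, which is higher where the 5' ends of transcripts are under-represented, ran from 1.80 to 1.96 in wild type, from 2.24 to 2.43 in L17 and from 2.42 to 2.53 in sps1. For a second ubiquitin pair, and for actin and GAPDH, the ranges of the lines overlapped.

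**Figure D4:**
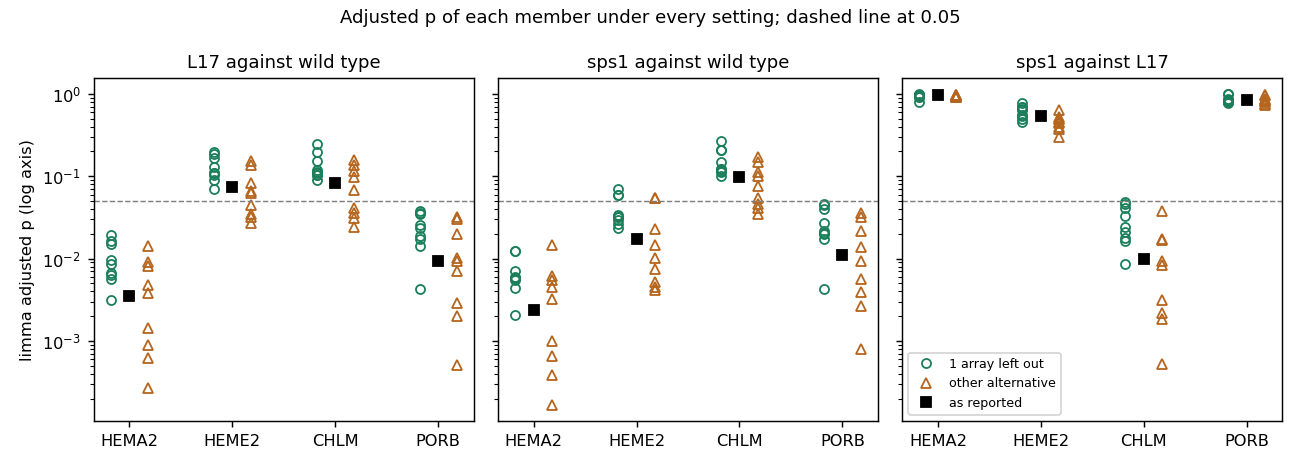
Limma adjusted p (log axis) of each member in each comparison as reported (squares), with each array left out in turn (circles) and under the other alternatives (triangles); the dashed line is the threshold of 0.05. HEMA2 and PORB stayed below the line against wild type under every setting drawn, as did CHLM in sps1 against L17, while HEME2 and CHLM against wild type had points on both sides.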

How the data were processed

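Biotin-labelled RNA from 9 whole-seedling samples was hybridised to 1-colour Affymetrix arrays. The authors deposited a single linear intensity for every probe set on every array, made with GCOS per the submitters' processing notes. How probes were summarised, and any detection call, is not given in the sources used here. All arrays shared a 2% trimmed mean of 500, so the intensities had been scaled, and no normalization was added. Sample titles gave each array its line and number. No 2 arrays were identical.

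Of 22810 probe sets 64 controls were left out. Signals were fitted as log2(signal + 16), which understates changes of dim genes, with limma 3.58.1 in R 4.3.3 (3 lines, no block), and p-values were Benjamini-Hochberg adjusted over 22746 probe sets. The procedure was tested on simulated data, and the number of arrays limits the precision. A platform annotation and RefSeq's gene table (TAIR10.1, names and gene order only) named 13513 probe sets for 1 gene and 503 for several. The remaining 8730 are unnamed here. The probe sequences, and whether they also match related genes such as PORA and PORC, were not checked, and a planned search of promoters for motifs was not run because no sequence was used here.

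The members and lists were chosen with earlier results of these data known. Members and pathway genes past the threshold in any comparison are named with values, a gene's brightest probe set standing for it. Regulators and markers with a named probe set are named, genes of like pattern by rank, and neighbours after their values were seen. The alternatives changed the pseudocount (1 or 64), the scaling (quantile normalization or median centring), the probe sets (mean signal of at least 100), the moderation (trended and robust), the arrays (each left out, weighted, or 2 lines only), the threshold (adjusted p of 0.01) or added a replicate block. The replicate numbers were not treated as pairs.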

Additional observations from a re-analysis of the deposited data

Results flagged for a closer look

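For CHLM and NOL the log2 changes of L17 and sps1 against wild type had opposite signs, and the difference between the lines passed its test, although no change of either gene against wild type passed. For CHLM sps1 was higher than L17 by 0.85 on the log2 scale (limma adjusted p = 0.00979), with 3 of 3 arrays of L17 below and 3 of 3 arrays of sps1 above all wild type arrays. For NOL the difference was 0.90 (limma adjusted p = 0.0322), a call lost under 8 of 19 alternatives. Its 3 arrays of L17 lay below all wild type arrays, but its sps1 arrays overlapped wild type, with a log2 change of 0.17 (limma adjusted p = 0.632) that was 0.0045 without sps1 replicate 2, so sps1 is not shown to lie on either side.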

How the results depend on the processing

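Over the alternatives run, the falls of HEMA2 and the rises of PORB and CHLP in both lines, and the CHLM difference between sps1 and L17, kept their direction and an adjusted p under 0.05, except that PORB in sps1 (log2 change 1.08, limma adjusted p = 0.0111) missed the stricter threshold of 0.01. HEME2 in L17 passed with a pseudocount of 64 (0.39), a filter on dim probe sets or trended and robust moderation (0.41 each), and array weights (0.42). CHLM in L17 passed under the same settings (-0.44, -0.45, -0.45 and -0.49), and CHLM in sps1 under the first 3 of them (0.40 each). HEME2 in sps1 (0.58) failed with the replicate block, in a fit of 2 lines and at 0.01. Of values that had not passed, HEMA2 in sps1 against L17 turned to 0.070 with quantile normalization and 0.051 with median centring, and HEMF2 in L17 to -0.10 without the second wild type array (range -0.10 to 0.44 with an array left out). With each array left out, the ranges were 0.35 to 0.49 for HEME2 and -0.51 to -0.36 for CHLM in L17, 0.52 to 0.66 for HEME2 and 0.33 to 0.48 for CHLM in sps1, and -0.19 to 0.11 for HEMA2 and -0.19 to 0.0064 for PORB in sps1 against L17. The shift of HEMA2 against PORB between those lines ranged from -0.20 to 0.26, turning to -0.01 without L17 replicate 3 and -0.20 without sps1 replicate 1. The cause of these changes was not tested.

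Of the 11 other pathway genes, 2 in place of 1 were called in L17 with a pseudocount of 64, the dim filter (7 genes tested), quantile normalization, trended and robust moderation, array weights or without sps1 replicate 2, the added gene being NOL (1 to 2 with an array left out). In sps1 the count of 2 became 3 with the dim filter (HEME1, CHLI2 and CHLP, with HEMF2 not tested) or array weights (HEMB2 added), 4 with quantile normalization (HEMB2 and CHLI2 added) and 5 with median centring (HEME1 too), which moved the median change of all probe sets in sps1 from -0.01 to 0.10, and 1 with the replicate block, a pseudocount of 1, a fit of 2 lines or the threshold of 0.01 (1 to 2 with an array left out). In sps1 against L17 the count of 1 became 0 with the replicate block, a pseudocount of 1 or the threshold of 0.01, and 2 with array weights or a fit of 2 lines (0 to 2 with an array left out). Same-numbered arrays of different lines deviated from their line means with correlations between -0.08 and 0.06, so the numbers were not taken as pairs. The replicate block moved the number of called probe sets from 2601 to 1806 in L17, from 3325 to 2492 in sps1 and from 1560 to 1013 between them, and 0 of 9 arrays correlated best with their own number in both other lines. Signals near the pseudocount, as for HEMA3, limit what can be seen of dim genes.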
